A study of Mus musculus with 24 samples.

Results

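Levels of 10 transcripts that control entry into the cell cycle were examined in MEFs, fibroblasts grown from the connective tissue of mouse embryos. The 10 genes, chosen by name, were the D-type cyclins Ccnd1, Ccnd2 and Ccnd3, their partner kinases Cdk4 and Cdk6, the inhibitors Cdkn1b, Cdkn2a, Cdkn2b and Cdkn2c, and the retinoblastoma gene Rb1. They are 10 of the 55487 genes in the table of counts. All 10 passed the filter on low counts, as did 15828 genes in all.

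Poly(A) RNA was sequenced from 24 libraries in 6 groups of 4. The MEFs were wild-type (WT) or carried a knockout (AMPK KO) of the energy-sensing kinase AMPK, and cells of each genotype received the vehicle DMSO, the AMPK activator MK-8722 or torin1, an inhibitor of the kinase MTOR. The methods of the study describe the AMPK KO line as lacking both catalytic subunit genes, Prkaa1 and Prkaa2, and no dose, time or embryo is given in the labels. Passage numbers ran from 12 to 15 in WT and from 16 to 19 in AMPK KO, with 1 library of each passage in each group, so passage and genotype cannot be told apart. Nothing in the labels says that libraries came from separate cell lines or embryos, so the p-values measure the spread between these libraries, and a difference between genotypes may be a difference between cell lines.

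Cells leave G1, the growth phase before DNA synthesis, when D-type cyclins bind the kinases CDK4 and CDK6 and the complexes phosphorylate the retinoblastoma protein, which then releases E2F transcription factors. The INK4 proteins, encoded by Cdkn2a, Cdkn2b and Cdkn2c, bind CDK4 and CDK6 and keep them from D-type cyclins, and p27, encoded by Cdkn1b, restrains complexes of cyclin E and CDK2. In fibroblasts, growth factor and nutrient signals raise D-type cyclins, and Cdkn2a is known for its activation in culture stress and senescence.

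The total count per library lay between 26900240 and 34192685, and RNA integrity numbers lay between 9.7 and 10. The labelled cell type was checked against its markers. Of 11 fibroblast markers, 9 reached 1 CPM in at least 1 library (CPM, the share of a library's counts scaled up and normalised by the trimmed mean of M-values, TMM). The other two, Lum and Dcn, stayed near 0 in every library. The summed level of the 11 markers lay between 11200 and 17300 CPM in the WT libraries, and AMPK KO libraries were lower, between 4890 and 6950 CPM. This difference was uneven. With DMSO the means in WT and AMPK KO were 2500 and 28.4 CPM for Col1a2, 3530 and 1890 CPM for Vim and 196 and 162 CPM for S100a4. Pdgfra was higher in AMPK KO, at 1.16 CPM beside 0.627 CPM. Thy1 reached 1 CPM only in WT libraries and stayed at or below 0.614 CPM in AMPK KO. Summed markers of epithelial, endothelial, leukocyte and muscle cells reached at most 8.6 CPM in any library, and those of neural cells ranged from 42.8 to 113 CPM. With MK-8722 in WT the neural sum lay at 42.8 to 51 CPM, below the 71.8 to 93.3 CPM with DMSO, and the endothelial sum at 4.44 to 8.6 CPM, above 0.878 to 1.28 CPM. With torin1 the neural sum was also lower without overlap, at 50.3 to 66.4 CPM in WT and at 60.9 to 73.7 CPM in AMPK KO, where DMSO gave 95.9 to 108 CPM. The endothelial sum in WT lay between 1.97 and 3.87 CPM with torin1, and the epithelial sum between 3.1 and 5.24 CPM, where DMSO gave 1.4 to 2.41 CPM. In AMPK KO the fibroblast sum with torin1 was 6360 to 6950 CPM, above 4940 to 5550 CPM with DMSO. The markers in this sum did not move together. In the means Vim rose from 1890 to 2660 CPM and Fn1 from 2090 to 3330 CPM, and Pdgfrb and Pdgfra also rose. Col1a1 fell from 1050 to 450 CPM, and Col1a2, Col3a1 and S100a4 also fell. Single genes carried the endothelial and neural sums in WT, so these sums do not measure shares of cell types. Kdr had means of 6.53 CPM with MK-8722 and 0.888 CPM with DMSO, and Tubb3 of 46.8 and 81.5 CPM. Sox2, a neural marker, had means of 14.5 CPM in AMPK KO and 0.00914 CPM in WT with DMSO. The part of these differences in the results below was not tested. In bulk RNA, fewer cells of a type and less RNA per cell cannot be told apart. Transcripts of Prkaa1 were present in both genotypes, at 71.3 to 84.5 CPM and 65.6 to 82.5 CPM, and Prkaa2 transcripts at 3.22 to 9.01 and 2.34 to 5.71 CPM. Counts per gene do not show whether a deleted exon is missing, so they do not check the genotype labels.

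Levels were first compared between genes per length, as TPM, the length-scaled share of all transcripts in a library, summed over the transcripts of each gene. By this sum Cdk4 was the most abundant of the 10 in each of the 6 groups, at 1020 ± 30.5 TPM (SD, n = 4) in WT with DMSO. Cdkn2a came next in each group, at 463 ± 19.3 TPM (SD, n = 4) in WT with DMSO. In the same cells the D-type cyclins followed, with Ccnd2 at 200 ± 19 TPM, Ccnd1 at 155 ± 16.7 TPM and Ccnd3 at 132 ± 11.3 TPM (SD, n = 4 each). The libraries of Ccnd1 and Ccnd3 overlapped in that group, and those of Ccnd2 and Ccnd1 did not. Cdkn2b at 61.9 ± 4.2 TPM, Cdkn2c at 46.3 ± 4.34 TPM, Cdkn1b at 28.6 ± 1.67 TPM, Cdk6 at 28 ± 3.35 TPM and Rb1 at 5.42 ± 0.605 TPM (SD, n = 4 each) were lower, and only Cdkn1b and Cdk6 overlapped among these neighbours in the order. In AMPK KO with DMSO Cdkn2a was followed by Ccnd3 at 123 ± 1.42 TPM and Ccnd1 at 116 ± 15.3 TPM, which overlapped, and then by Ccnd2 at 71.6 ± 8.99 TPM (SD, n = 4 each). With torin1 in AMPK KO, Ccnd2 was the lowest of the 10, at 13.7 ± 1.77 TPM, within the spread of Rb1 at 14.3 ± 2.32 TPM (SD, n = 4 each). The level of Cdk4 rests in part on a short annotated fragment. The retained-intron transcript Cdk4-209 of 468 bases took 32.1% to 33.5% of Cdk4 TPM in the group means. Likewise Cdk6-205, of 425 bases, took 41.1% of Cdk6 TPM in WT with DMSO. In that group the protein-coding transcripts of Cdk4 had means of 258, 75.2, 38.2 and 15.9 TPM. Together these lay below the 463 TPM of Cdkn2a, whose transcripts are all protein-coding. The rest of Cdk4 TPM came from retained introns and a transcript marked for nonsense-mediated decay (191 TPM). The rank of Cdk4 above Cdkn2a in WT with DMSO thus depends on transcripts not annotated as coding. In that group the longest Ccnd2 transcript, Ccnd2-201, stood at 107 ± 10.2 TPM, below Ccnd1-201 at 145 ± 16.8 TPM (SD, n = 4 each). The order of Ccnd2 and Ccnd1 thus depends on shorter Ccnd2 transcripts.

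**Figure D1:**
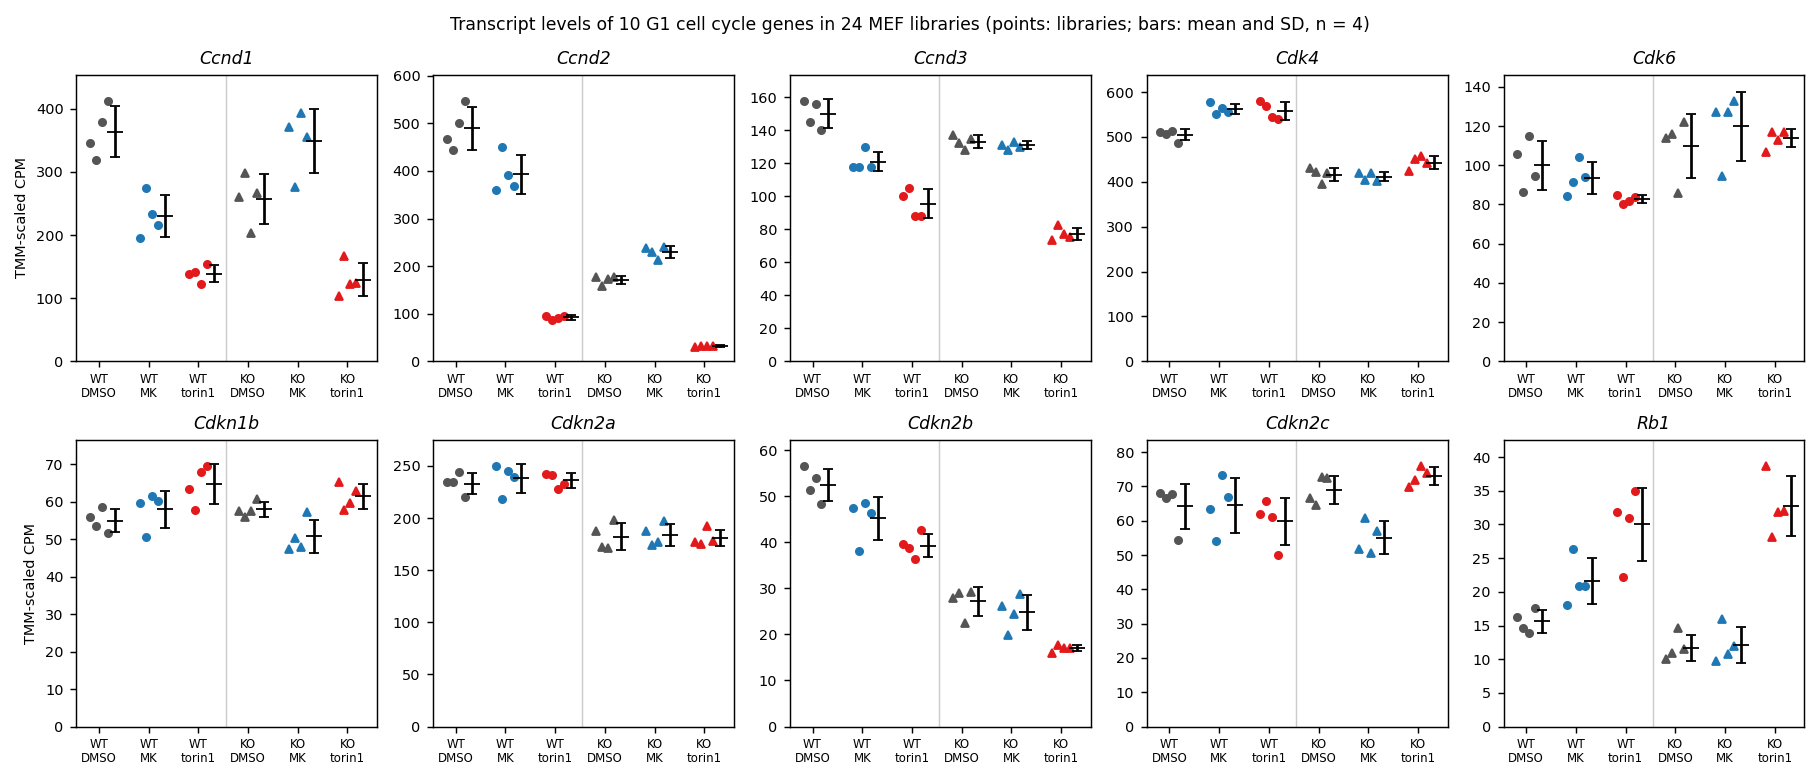
TMM-scaled CPM (linear axes from 0) of the 10 genes in each of the 24 libraries, by group, with the mean and SD of 4 libraries beside the points (circles WT, triangles AMPK KO, MK for MK-8722). With torin1 the mean of Ccnd2 fell from 490 to 92.2 CPM in WT, and in AMPK KO it fell from 171 to 31.6 CPM, and Cdkn2a stayed between 171 and 250 CPM in all libraries.

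A gene was called changed when its adjusted p lay below 0.05 and it differed by 1.2-fold or more, by edgeR's quasi-likelihood test with Benjamini-Hochberg adjustment over all genes tested. Adjusted p below are from this test unless another is named. Among the 10 genes, MK-8722 changed 4 in WT, against 15.7% of all genes. Of these 1 was higher, beside 10.0% of all genes, and 3 were lower, beside 5.66%. In AMPK KO it changed 2, against 1.56% of all genes, 1 higher beside 0.866% and 1 lower beside 0.695%. Torin1 changed 6 in WT, against 47.6% of all genes, with 1 higher beside 26.6% and 5 lower beside 21.1%. In AMPK KO it changed 5, against 43.5%, with 1 higher beside 25.9% and 4 lower beside 17.6%. Between genotypes in DMSO, 6 of the 10 were lower in AMPK KO, beside 26.0% of all genes, and none higher, beside 30.9%, and 56.9% were called in either direction. The response to MK-8722 differed between genotypes for 3 of the 10, against 12.8% of all genes. All 3 were higher in AMPK KO, beside 5.12% of all genes, and 7.66% were lower. For the response to torin1, edgeR without a block called 0 of the 10, against 7.07% of all genes (4.15% higher, 2.92% lower). Of the 10, 2 had an unadjusted p under 0.05 in that fit. DESeq2 also called 0, against 9.26% of all genes. With passage as a block, edgeR called 3 (Ccnd1, Cdk6 and Rb1), against 11.8%. With an offset for transcript length, edgeR called 1 (Ccnd2), against 5.01%. The main fit did not pair libraries by passage, though libraries of the same passage deviated together. Libraries of the compared groups did not overlap for 25.5% of all genes with MK-8722 and 51.8% with torin1 in WT, for 11.7% and 53.8% in AMPK KO, and for 64.0% between genotypes. In either direction, the counts for torin1 and for genotype were close to the share of all genes called in those comparisons. By direction they were not: more of the 10 were called lower, and fewer higher, than the shares of all genes. This difference by direction was not tested. The median log2 fold change of the 10 genes was -0.05 with MK-8722 and -0.19 with torin1 in WT, beside 0.00 and 0.04 over all genes. It was 0.00 and 0.02 in AMPK KO, beside 0.00 and 0.06. The comparisons of both drugs with DMSO share the DMSO libraries of their genotype.

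**Figure D2:**
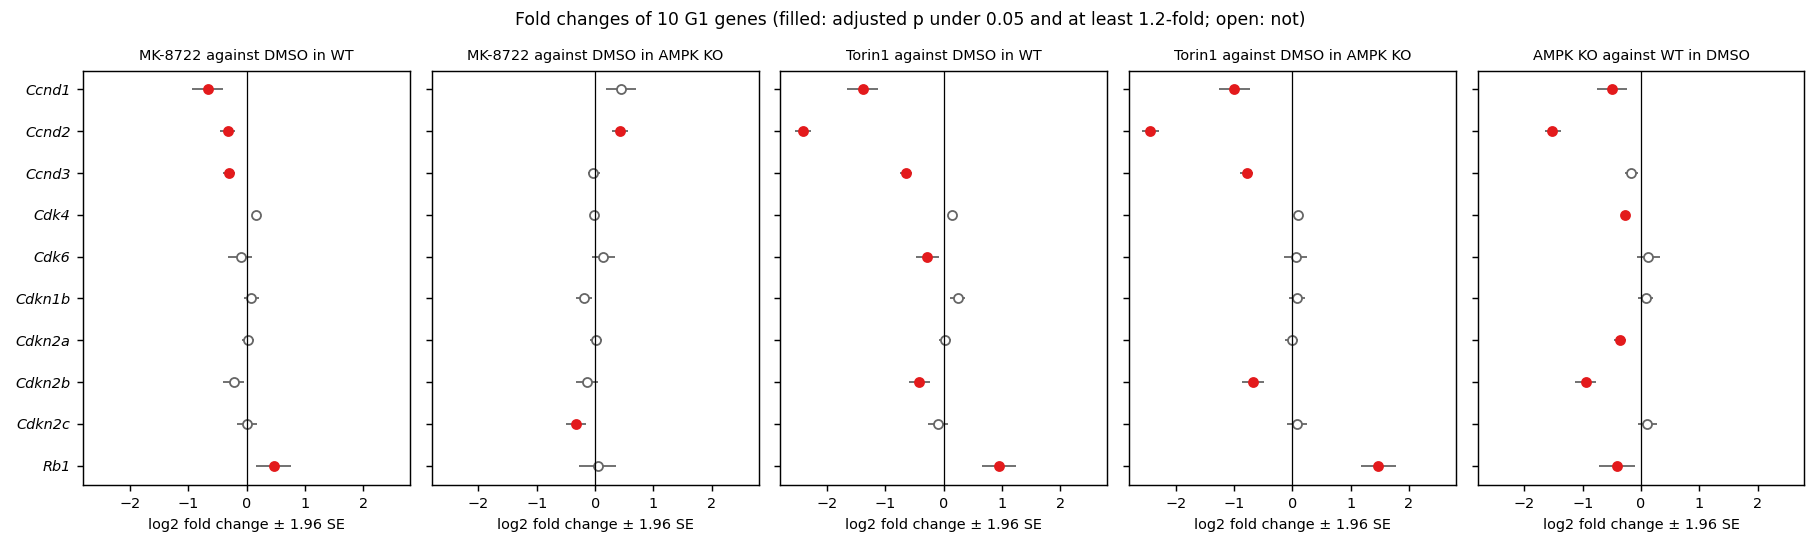
Log2 fold change of each of the 10 genes in the 5 comparisons (points, with bars for the 95% interval), filled red where the gene was called and open where it was not. With MK-8722 the 3 D-type cyclins lie left of 0 in WT, and Ccnd1 and Ccnd2 lie right of 0 in AMPK KO, where Ccnd2 alone of them was called.

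The D-type cyclins moved with both drugs in WT. Ccnd1 encodes cyclin D1, the D-type cyclin best known as a growth factor target in fibroblasts. The gene (ENSMUSG00000070348) lies on chromosome 7, from 144929931 to 144939925 in GRCm38, on the reverse strand. In WT with DMSO its 4 libraries stood at 346, 319, 379 and 413 CPM, with MK-8722 at 195, 275, 233 and 216 CPM, and with torin1 at 138, 141, 123 and 154 CPM. The 3 groups did not overlap. Ccnd1 was lower with MK-8722 by a log2 fold change of -0.66 (SE 0.13, adjusted p = 0.00056) and with torin1 by -1.39 (SE 0.14, adjusted p = 5.7e-09), from 364 ± 40.8 CPM (SD, n = 4) with DMSO.

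In AMPK KO, Ccnd1 stood at 261, 299, 203 and 267 CPM with DMSO and at 371, 276, 393 and 356 CPM with MK-8722. These groups overlapped, since the lowest MK-8722 library lay below the highest DMSO library. The log2 fold change was 0.44 (SE 0.13, adjusted p = 0.076), and Ccnd1 was not called. The lowest library of each group was of passage 16, and at the same passage MK-8722 was above DMSO in 4 of 4 passages, by 1.31-fold to 1.42-fold. With passage as a block the adjusted p was 2.26e-05, and DESeq2 gave an adjusted p of 0.0292. By edgeR, Ccnd1 was also called without AMPK KO MK-8722 replicate 2 (0.53, adjusted p = 0.036) and with no filter on low counts (0.43, adjusted p = 0.0301). With torin1 the libraries stood at 104, 166, 122 and 124 CPM, all below those with DMSO, and the log2 difference was -0.998 (SE 0.14, adjusted p = 1.2e-06). The MK-8722 response of Ccnd1 differed between the genotypes by 1.103 on the log2 scale (AMPK KO minus WT, SE 0.19, adjusted p = 0.00026).

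Ccnd2 encodes cyclin D2. The gene (ENSMUSG00000000184) lies on chromosome 6, from 127125162 to 127152193, on the reverse strand. In WT it stood at 467, 445, 501 and 548 CPM with DMSO, at 361, 451, 391 and 369 CPM with MK-8722, and at 95.8, 86.1, 90.8 and 96.1 CPM with torin1. The torin1 libraries were far below the others, 5.32-fold below DMSO in the means, and 1 MK-8722 library, the 451 CPM of replicate 2, lay within the DMSO range. Both changes were called, with log2 fold changes of -2.41 for torin1 (SE 0.071, adjusted p = 4.8e-17) and -0.32 for MK-8722 (SE 0.067, adjusted p = 8e-04). Without the 548 CPM library, WT DMSO replicate 4, the value for MK-8722 was -0.26 (adjusted p = 0.00535), just under 1.2-fold.

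In AMPK KO, Ccnd2 stood at 177, 158, 172 and 178 CPM with DMSO, at 238, 230, 212 and 240 CPM with MK-8722, and at 29, 32.5, 32 and 33 CPM with torin1, and the 3 groups did not overlap. It was higher with MK-8722 (log2 fold change 0.43, SE 0.068, adjusted p = 0.0013), by 1.34-fold to 1.35-fold at the same passage, and lower with torin1 (-2.44, SE 0.074, adjusted p = 3.9e-17). With an offset for transcript length the MK-8722 value was 0.35 with an adjusted p of 0.0755. The response to MK-8722 thus had opposite signs in the genotypes, and differed by 0.75 on the log2 scale (SE 0.095, adjusted p = 7.4e-06).

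The torin1 response of Ccnd2 was not called different between genotypes in counts per gene (-0.03, 95% interval -0.22 to 0.17), but it was with an offset for transcript length (-0.58, adjusted p = 0.0159). In TPM, Ccnd2 went from 200 to 57.1 in WT and from 71.6 to 13.7 in AMPK KO. The mix of estimated transcripts differed between these groups in WT, where the long transcript Ccnd2-201 (6330 bases) took 53.5% of Ccnd2 TPM with DMSO (49.5% to 57.7% over libraries) and 34.2% with torin1 (30.9% to 38.1%). In AMPK KO it took 56.8% with DMSO and 58% with torin1, and the libraries overlapped. These shares are estimates from reads that annotated transcripts share.

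Ccnd3 encodes cyclin D3. The gene (ENSMUSG00000034165) lies on chromosome 17, from 47505051 to 47599691, on the forward strand. In WT it stood at 158, 145, 156 and 140 CPM with DMSO, at 118, 118, 130 and 118 CPM with MK-8722, and at 100, 105, 88.2 and 88 CPM with torin1, with no overlap. Both falls were called, at log2 fold changes of -0.31 (SE 0.054, adjusted p = 0.00013) and -0.65 (SE 0.054, adjusted p = 3.3e-10). In AMPK KO the DMSO libraries stood at 137, 132, 128 and 135 CPM and the MK-8722 libraries at 131, 128, 133 and 130 CPM. These overlapped, and the 95% interval of the log2 difference ran from -0.13 to 0.08. With torin1 the AMPK KO libraries fell to 73.7, 82.3, 77.3 and 75.4 CPM, a log2 fold change of -0.79 (SE 0.054, adjusted p = 2.6e-11). The MK-8722 response differed between genotypes by 0.28 (SE 0.076, adjusted p = 0.014). That value is near the 1.2-fold limit, and it lost its call with library size alone (0.25) and without any of 3 single libraries, AMPK KO DMSO replicate 3 (0.257), WT DMSO replicate 1 (0.26) and WT MK-8722 replicate 2 (0.261).

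**Figure D3:**
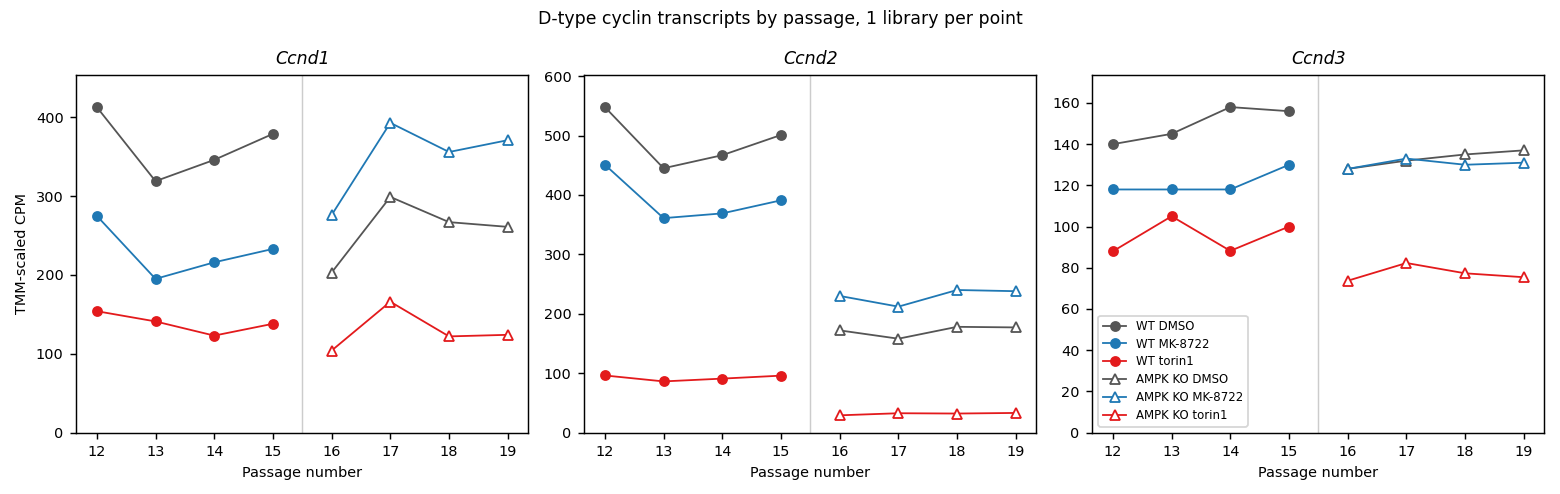
TMM-scaled CPM (linear axes from 0) of Ccnd1, Ccnd2 and Ccnd3 against passage number, 1 library per point, joined within a group (grey DMSO, blue MK-8722, red torin1, filled WT, open AMPK KO). At every passage of WT the order is DMSO, MK-8722, torin1, and at every passage of AMPK KO Ccnd1 and Ccnd2 are highest with MK-8722.

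Between genotypes in DMSO, Ccnd2 was lower in AMPK KO by -1.52 (SE 0.069, adjusted p = 2.1e-15), 2.86-fold in the means, and Ccnd1 by -0.50 (SE 0.13, adjusted p = 0.0019). Ccnd3 differed by -0.17 (adjusted p = 0.0071), under 1.2-fold. All 3 sets of libraries were without overlap, as were those of 64.0% of all genes in this comparison. The summed level of fibroblast markers was also lower in AMPK KO, as given above, and its part in the result was not tested.

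The genes whose pattern over the 24 libraries was most like that of Ccnd1, after the genotype means were subtracted, were Ccdc86 (Pearson's r = 0.976), Usp10 (0.973) and Wdr77 (0.973), among 10174 protein-coding genes with a mean of at least 5 CPM. These correlations rest on libraries that share treatments and are a description.

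The kinases changed little. Cdk4 (ENSMUSG00000006728, chromosome 10, 127063534 to 127067920) stood at 512, 507, 513 and 486 CPM in WT with DMSO, at 578, 552, 564 and 555 CPM with MK-8722 and at 581, 568, 545 and 539 CPM with torin1. Each drug group lay wholly above DMSO, yet the rises of 0.16 (SE 0.035, adjusted p = 0.0016) and 0.15 (SE 0.035, adjusted p = 0.001) were under 1.2-fold. In AMPK KO the values were 430, 421, 394 and 419 CPM with DMSO, all below the WT libraries, 420, 404, 419 and 401 CPM with MK-8722, and 423, 450, 457 and 443 CPM with torin1. The torin1 rise there was 0.09 (SE 0.035, adjusted p = 0.031), also under 1.2-fold. Cdk4 was lower in AMPK KO by -0.28 (SE 0.035, adjusted p = 2e-07), or 1.21-fold in the means. This lay so near the limit that it was not called with library size alone (-0.14), with a filter of 10 counts in every library (-0.22) or without AMPK KO DMSO replicate 3 (-0.26).

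Cdk6 (ENSMUSG00000040274, chromosome 5, 3341485 to 3531008) stood at 106, 86.5, 115 and 94.3 CPM in WT with DMSO and at 84.9, 80.2, 81.8 and 83.8 CPM with torin1. The torin1 libraries all lay below those with DMSO, and the fall of 0.28 on the log2 scale was called (SE 0.1, adjusted p = 0.022). The call was lost with an offset for transcript length (-0.08, adjusted p = 0.548), with library size alone (-0.18), with the stricter filter (-0.25), and without WT DMSO replicate 1 (-0.27), WT DMSO replicate 3 (-0.22) or WT torin1 replicate 3 (-0.25). With MK-8722 in WT it stood at 84.3 to 104 CPM. In AMPK KO it ranged from 85.7 to 122 CPM with DMSO, from 94.3 to 133 CPM with MK-8722 and from 107 to 117 CPM with torin1, and the 3 groups overlapped. The genotypes in DMSO differed by 0.13 (SE 0.1, adjusted p = 0.28), which was called only with library size alone (0.26, adjusted p = 0.0199).

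Among the inhibitors, Cdkn1b (ENSMUSG00000003031, chromosome 6, 134920401 to 134925513), which encodes p27, was called in none of the comparisons. In WT its libraries stood at 55.8, 53.6, 58.5 and 51.5 CPM with DMSO, at 50.6 to 61.4 CPM with MK-8722 and at 63.3, 57.8, 68 and 69.5 CPM with torin1. The torin1 value of 0.24 (SE 0.068, adjusted p = 0.004) was 1.18-fold, and it passed 1.2-fold under a stricter filter (0.27), with library size alone (0.34), and without WT torin1 replicate 1 (0.27) or replicate 2 (0.28). In AMPK KO the ranges were 55.8 to 60.8 CPM with DMSO, 47.3 to 57.1 CPM with MK-8722 and 57.8 to 65.3 CPM with torin1. The MK-8722 response differed between genotypes by -0.27 (SE 0.096, adjusted p = 0.054), which was not called. It was called by DESeq2 (adjusted p = 0.0366), with passage (0.024) or replicate number (0.0315) as a block, and with library size alone (0.0447). It was also called without WT MK-8722 replicate 2 (0.00928), WT DMSO replicate 3 (0.0476) or AMPK KO MK-8722 replicate 4 (0.016). The genes most like Cdkn1b by the measure used for Ccnd1 were Pax3 (r = 0.856), Mindy2 (0.846) and Smc4 (0.833).

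Cdkn2a (ENSMUSG00000044303, chromosome 4, 89274471 to 89294653, reverse strand) encodes 2 unrelated proteins from 2 first exons joined to a common second exon. The transcript from the upstream first exon (Cdkn2a-202, exon 89294334 to 89294653, 320 bases) encodes p19Arf, which stabilises p53 by binding MDM2. The transcript from the downstream first exon (Cdkn2a-201, exon 89281986 to 89282192, 207 bases) encodes the CDK4 and CDK6 inhibitor p16Ink4a. The joins are shown because the first exons set the 2 products apart. Lower case marks the last 24 bases of the first exon and capitals the first 24 of the second exon, from the GENCODE M21 transcripts of GRCm38, 5′ to 3′:
p19Arf: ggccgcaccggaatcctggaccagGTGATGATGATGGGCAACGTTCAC
p16Ink4a: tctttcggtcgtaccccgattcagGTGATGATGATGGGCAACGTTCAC
The capitals are identical, but the first exons hold 190 and 126 coding bases, so the second exon is read in frames that differ. Reads that lie wholly in the second exon, 341 bases long, cannot be assigned to either product, and the separate estimates depend on the first exons and the joins.

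The table of promoters from RefSeq held 10 promoters of 7 of the 10 genes. It held none for Ccnd1, Ccnd2 and Rb1. The 2 promoters of Cdkn2a and that of its neighbour Cdkn2b are shown because these 3 transcripts differed in how they varied between groups. Each line gives 150 bases that end before the outermost annotated start (GRCm38.p6, 5′ to 3′ on the reverse strand). Capitals mark matches on either strand to TTTCCCGC or TTTGGCGC (E2F), TGACTCA (AP-1), TGACGTCA or TGACGCAA (cyclic AMP response element), CACGTG or TCACGTGA (E-box and CLEAR element, the longer containing the shorter), GTAAACA (FOXO) and GGGCGG (GC box):
p19Arf promoter, chr4:89294654-89294803: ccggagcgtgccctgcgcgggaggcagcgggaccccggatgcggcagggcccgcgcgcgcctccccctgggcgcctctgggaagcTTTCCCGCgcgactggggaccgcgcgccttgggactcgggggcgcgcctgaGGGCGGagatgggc
p16Ink4a promoter, chr4:89282193-89282342: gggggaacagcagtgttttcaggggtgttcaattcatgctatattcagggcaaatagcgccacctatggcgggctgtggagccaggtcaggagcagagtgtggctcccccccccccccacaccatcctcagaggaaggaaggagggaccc
Cdkn2b promoter, chr4:89311040-89311189: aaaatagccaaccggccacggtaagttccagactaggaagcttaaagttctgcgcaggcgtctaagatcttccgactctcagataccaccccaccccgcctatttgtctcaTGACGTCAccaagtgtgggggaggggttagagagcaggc
The lines show part of each promoter, and motif shares were counted over whole promoters in the table, from 250 bases before to 50 bases after the start. Over that length the p19Arf promoter held an E2F match, TTTCCCGC, as did 1.07% of the 32851 promoters in the table, and 3 GC boxes. The Cdkn2b promoter held TGACGTCA, found in 1.79% of all promoters, and 1 GC box. The p16Ink4a promoter held 1 GC box, which lies outside the bases shown. A GC box was held by 35.7% of all promoters. G and C made up 80% of the p19Arf stretch, 60% of the p16Ink4a stretch and 54% of the Cdkn2b stretch. These matches describe the letters and no factor was measured here.

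As a gene, Cdkn2a was not called with either drug in either genotype. It stood at 235, 235, 244 and 220 CPM in WT with DMSO and at 188, 172, 171 and 198 CPM in AMPK KO with DMSO, without overlap, and was lower in AMPK KO by -0.36 (SE 0.052, adjusted p = 1.7e-06). With library size alone the value was -0.22, under 1.2-fold. The 95% intervals of the 4 drug differences lay between -0.12 and 0.13 on the log2 scale.

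The transcripts behind this gene total moved apart. In WT with DMSO, p19Arf stood at 373, 374, 367 and 345 TPM and p16Ink4a at 98.1, 94, 112 and 90.5 TPM. In AMPK KO with DMSO, p19Arf was lower in every library, at 253, 239, 242 and 278 TPM, and p16Ink4a higher in every library, at 149, 127, 138 and 149 TPM. The differences in mean log2(TPM + 0.1) were -0.53 for p19Arf and 0.51 for p16Ink4a, each with a two-sided exact permutation p of 0.0286, the smallest that 4 against 4 libraries allow, and an adjusted p of 0.0476 over 10 tests. The share of p16Ink4a in Cdkn2a TPM was 21.3% ± 1.45 in WT and 35.8% ± 1.12 in AMPK KO (SD, n = 4 each).

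Both drugs went with more p16Ink4a in WT. With MK-8722 it stood at 117, 118, 121 and 128 TPM and with torin1 at 127, 122, 135 and 139 TPM, all above the DMSO libraries. The log2 differences from DMSO were 0.30 and 0.41 (exact permutation test, adjusted p = 0.0476 each). The p19Arf transcript, at 323 to 381 TPM with MK-8722 and 356 to 396 TPM with torin1, overlapped with DMSO. In AMPK KO, p16Ink4a with MK-8722 stood at 129 to 161 TPM, overlapping with DMSO, a difference of -0.01 (exact permutation test, p = 0.943). With torin1 it rose to 201, 167, 207 and 191 TPM (0.44), while p19Arf fell to between 217 and 238 TPM (-0.16), both without overlap with DMSO (exact permutation test, adjusted p = 0.0476 each). Here the p16Ink4a share was 45.8% ± 2.54 (SD, n = 4). Whether the p16Ink4a response to MK-8722 differed between genotypes was not tested.

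TPM is relative to all transcripts of a library. When the transcript counts were scaled by the TMM library sizes instead, all 6 differences kept their sign and none kept an adjusted p under 0.05, at 0.0571 for 5 of them and 0.0952 for p16Ink4a with torin1 in WT. The 5 still had the smallest p that the test allows, 0.0286, and with 10 tests an adjusted p under 0.05 needs 6 of them at that p, so their calls were lost through the one other test. The transcript counts behind these values were 1230 to 2879 per library for p16Ink4a and 3084 to 5883 for p19Arf.

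**Figure D4:**
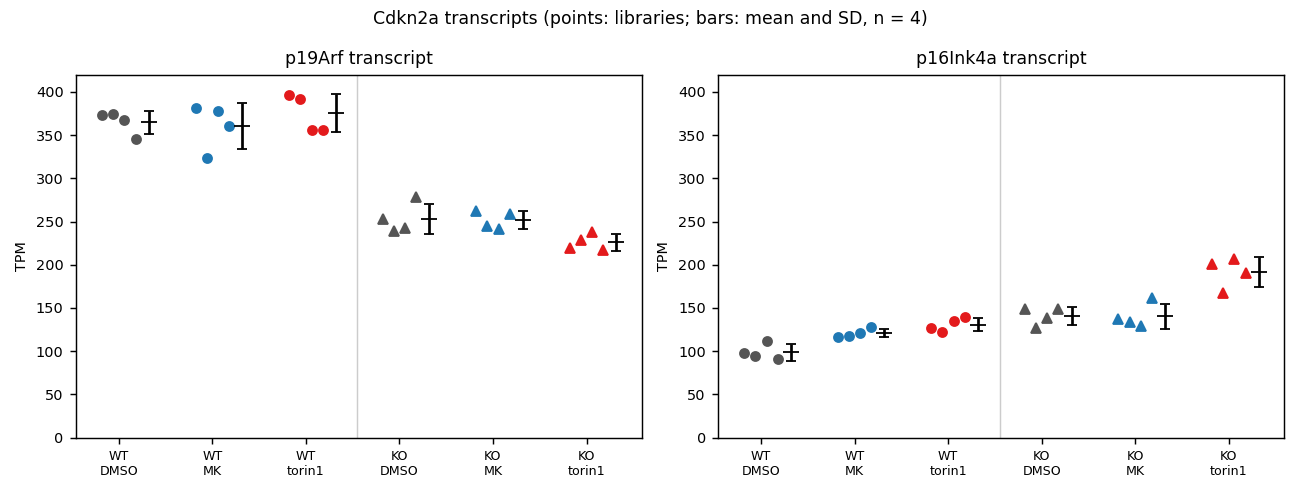
TPM (linear axes from 0) of the p19Arf and p16Ink4a transcripts of Cdkn2a in each library, with the mean and SD of 4 libraries (circles WT, triangles AMPK KO, MK for MK-8722). The p19Arf points of WT, 323 to 396 TPM, all lie above those of AMPK KO, 217 to 278 TPM, and the p16Ink4a points are highest with torin1 in AMPK KO, at 167 to 207 TPM.

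Cdkn2b (ENSMUSG00000073802, chromosome 4, 89306299 to 89311039, reverse strand), the gene of p15Ink4b, lies beside Cdkn2a. In WT it stood at 56.6, 51.3, 53.9 and 48.3 CPM with DMSO and at 39.6, 38.7, 36.3 and 42.6 CPM with torin1, and in AMPK KO at 28, 29, 22.5 and 29.3 CPM with DMSO and at 16, 17.7, 17.1 and 17 CPM with torin1. Neither pair overlapped. It was lower with torin1 by -0.42 in WT (SE 0.092, adjusted p = 0.00041) and by -0.68 in AMPK KO (SE 0.098, adjusted p = 2.7e-06), and lower in AMPK KO than in WT by -0.95 (SE 0.094, adjusted p = 3.4e-09). With MK-8722 it stood at 38.2 to 48.5 CPM in WT and 19.8 to 28.7 CPM in AMPK KO, and was not called. Of 68 annotated genes within 1 Mb of Cdkn2a, 16 were tested and 4 reached 5 CPM in DMSO in both genotypes. Besides Cdkn2b these were Mtap, with group means of 192 and 159 CPM for WT and AMPK KO, Klhl9, with 110 and 100 CPM, and Focad, with 28.5 and 24.4 CPM, so transcripts from both sides of Cdkn2a were present in both genotypes.

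Cdkn2c (ENSMUSG00000028551, chromosome 4, 109660876 to 109667189), the gene of p18Ink4c, changed only with MK-8722 in AMPK KO among the drug comparisons. There it stood at 51.9, 60.9, 50.5 and 56.9 CPM, below the DMSO libraries at 66.7, 64.7, 72.7 and 72.5 CPM, a log2 fold change of -0.33 (SE 0.088, adjusted p = 0.046). At the same passage it was below DMSO in 4 of 4 passages, at ratios of 0.778 to 0.838. The call was lost when any 1 of 7 of the 8 libraries compared was left out, at values from -0.29 to -0.36. These were AMPK KO DMSO replicates 1, 2, 3 and 4 and AMPK KO MK-8722 replicates 1, 3 and 4. It was also lost with an offset for transcript length (-0.32, adjusted p = 0.0774) and with the replicate number as a block (-0.33, adjusted p = 0.0557). In WT the libraries with DMSO, at 54.5 to 68 CPM, overlapped with those with MK-8722, at 54.1 to 73.4 CPM, and torin1, at 50.1 to 65.9 CPM. The difference between genotypes in the MK-8722 response was -0.34 (SE 0.12, adjusted p = 0.067) and was not called. It was called with passage as a block (adjusted p = 0.000838) and by DESeq2 (adjusted p = 0.047). It was also called without AMPK KO MK-8722 replicate 2 (adjusted p = 0.0471) or WT MK-8722 replicate 2 (adjusted p = 0.0145).

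Rb1 (ENSMUSG00000022105, chromosome 14, 73183673 to 73325822) was the only member called higher with torin1 in both genotypes. In WT it stood at 16.2, 14.6, 13.9 and 17.6 CPM with DMSO, at 18.1, 26.3, 20.9 and 20.9 CPM with MK-8722 and at 31.9, 22.2, 30.9 and 35 CPM with torin1. Both drug groups lay above DMSO. The rises were 0.47 with MK-8722 (SE 0.15, adjusted p = 0.024) and 0.94 with torin1 (SE 0.15, adjusted p = 8.5e-06). The first rested on single libraries, with an adjusted p of 0.0963 without WT MK-8722 replicate 2, 0.0723 without WT DMSO replicate 2 and 0.0826 without WT DMSO replicate 3. In AMPK KO the libraries stood at 10.1, 10.9, 14.6 and 11.5 CPM with DMSO, at 9.72, 15.9, 10.8 and 12 CPM with MK-8722, which overlapped, and at 38.7, 28.1, 31.8 and 32 CPM with torin1, a rise of 1.47 (SE 0.15, adjusted p = 1.8e-08). Rb1 was lower in AMPK KO with DMSO by -0.41 (SE 0.16, adjusted p = 0.025), though the libraries overlapped. That call was lost with library size alone (-0.27), with an offset for transcript length (-0.28), and without AMPK KO DMSO replicate 1 (-0.35), AMPK KO DMSO replicate 2 (-0.38) or WT DMSO replicate 4 (-0.36).

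Passage gave a further source of variation within groups. The slope tests count each library separately, though each genotype had only 4 passages and libraries of the same passage deviated together. The p-values of the slopes can therefore be too small. Over 3 passage steps in WT, Cdkn2c rose by 0.32 on the log2 scale (SE 0.075, adjusted p = 0.02), and it was the only 1 of the 10 called, against 2.68% of all genes, and 1.01% in that direction. The call was lost without any of 4 single libraries, WT DMSO replicate 4 (0.28), WT MK-8722 replicate 2 (0.27), WT MK-8722 replicate 3 (0.30) or WT torin1 replicate 4 (0.27). The value was 0.06 (adjusted p = 0.808) without passage 12, and Cdk6 was then called in its place, at 0.39 (adjusted p = 0.00425). In AMPK KO edgeR and DESeq2 each called 0 of the 10, against 0.107% of all genes by edgeR (0.0316% higher, 0.0758% lower), and 4 had an unadjusted p under 0.05, with slopes of 0.29 for Cdk6, 0.13 for Cdkn2a, 0.26 for Cdkn2b and -0.41 for Rb1 over 3 steps. With passage as a block, the MK-8722 response differed between genotypes for 6 of the 10, Cdkn1b, Cdkn2c and Rb1 joining the D-type cyclins, against 17.6% of all genes in that fit. The torin1 response then differed for 3, Ccnd1 (0.38), Cdk6 (0.34) and Rb1 (0.54), against 11.8% of all genes.

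The genes around the 10 in the same pathway were then counted in 7 lists, where a gene said to be higher, lower, raised or lowered was called by the same test, and values in brackets are log2 differences. The counts are to be read against the share of all genes called, which with torin1 was 26.6% higher and 21.1% lower in WT and 25.9% higher and 17.6% lower in AMPK KO. With MK-8722 in WT it was 10.0% higher and 5.66% lower, and between genotypes in DMSO 30.9% higher and 26.0% lower. Of 9 genes of cyclin E, CDK2 and other inhibitors, torin1 lowered 7 in WT and 7 in AMPK KO. The largest falls were of Cdkn1a, the p53 target p21, by -1.34 in WT and -0.67 in AMPK KO, and of Ccne1, cyclin E1, by -0.82 and -0.87. Cdkn1c, which encodes p57, was the only 1 higher, by 0.65 in WT. With MK-8722 in WT, Ccne1 alone was called, at -0.63 (adjusted p = 9.4e-06), and in AMPK KO no gene of the list was. Its MK-8722 response differed between genotypes by 0.68 (adjusted p = 0.00029), the same sign as for the D-type cyclins. In DMSO 4 of the 9 were higher and 2 lower in AMPK KO, among them Cdkn1c by 1.85 and Ccne1 by 1.31, and Cdk2 by -0.41 and Cdc25a, the phosphatase that activates CDK2, by -0.34.

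Of 12 pocket protein and E2F genes, torin1 lowered 6 and raised 2 in WT and lowered 5 and raised 4 in AMPK KO. E2f4, a repressor E2F, fell by 0.80 and E2f2, an activator, by 0.72 in WT, and E2f2 fell by 1.02 and E2f4 by 0.53 in AMPK KO. Tfdp2, an E2F partner, rose by 0.53 and 0.84, and Rbl2, which encodes the RB relative p130, by 0.49 and 0.51. MK-8722 lowered E2f2 (-0.51) and E2f7 (-0.34) in WT and Rbl2 (-0.29) in AMPK KO, with no gene raised in either. In DMSO 2 were higher in AMPK KO, E2f2 by 1.06 and E2f1 by 0.32, and 6 lower, led by E2f7 (-0.80) and E2f6 (-0.78). The MK-8722 response differed for 3, with E2f2 (0.46) and E2f3 (0.27) higher and Rbl2 (-0.53) lower in AMPK KO.

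Of 16 S-phase genes known as E2F targets, MK-8722 lowered 2 in WT, Tyms (-0.34) and Cdc6 (-0.34), and none was called in AMPK KO. Torin1 raised 3 and lowered 3 in WT, and raised 3 and lowered 4 in AMPK KO. In WT the replication licensing genes Cdt1 (0.78) and Mcm6 (0.53) rose and the nucleotide synthesis genes Tk1 (-0.49) and Rrm2 (-0.37) fell. In AMPK KO, Cdt1 (0.54) and Mcm6 (0.45) rose and Tk1 (-0.63) and Tyms (-0.53) fell. In DMSO 7 were higher in AMPK KO, led by Mcm2 (0.61) and Tyms (0.52), and 1 was lower. The MK-8722 response differed for 1, Tyms (0.32).

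The smaller lists gave few calls. Of 3 genes of the CDK-activating kinase, torin1 raised Ccnh by 0.37 in WT and 0.29 in AMPK KO and lowered Cdk7 by -0.36 in WT, and Cdk7 was lower in AMPK KO with DMSO (-0.42). Of 4 genes for cyclin D turnover, torin1 raised Fbxo31, a subunit of a ubiquitin ligase, by 0.45 and 0.38, and Fbxo4 (0.49) and Fbxo31 (0.48) were higher in AMPK KO. No gene of these lists was called with MK-8722 in either genotype. Of the 3 genes that link p19Arf to p21, torin1 lowered Cdkn1a, given above, and Mdm2, by -0.60 in WT and -0.27 in AMPK KO, and MK-8722 lowered Trp53 in WT (-0.42). Of 5 factors known to act on D-type cyclin promoters, torin1 lowered Fosl1, an AP-1 subunit, by -1.18 in WT and -0.61 in AMPK KO, and in AMPK KO it also lowered Jun (-0.29) and raised Myc (0.67). With DMSO, 3 of the 5 were lower in AMPK KO, led by Myc (-1.29) and Jun (-1.07).

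**Figure D5:**
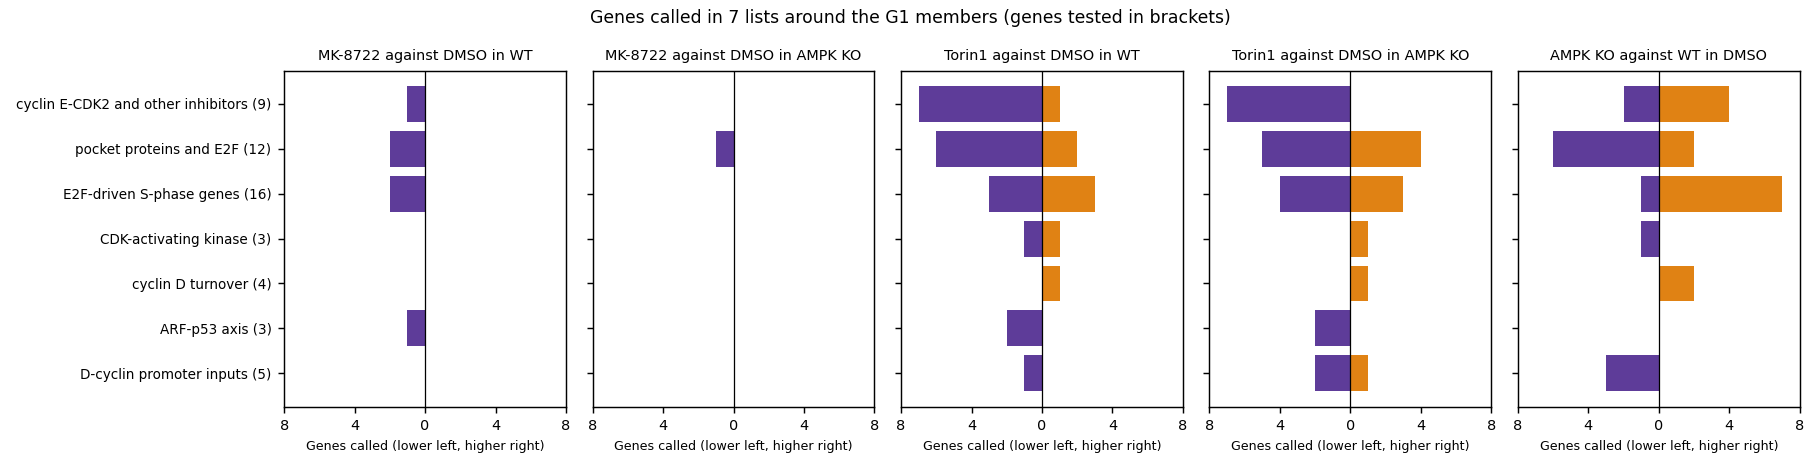
Number of genes called higher (orange, right of 0) and lower (purple, left of 0) in 7 lists around the 10 genes for the 5 comparisons, with the number tested in brackets. For cyclin E, CDK2 and other inhibitors the bars reach 7 genes left of 0 with torin1 in both genotypes, while MK-8722 in AMPK KO has a single gene called in the 7 lists.

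Some of the 10 genes overlap others on the opposite strand in the annotation, Ccnd1 with LTO1, Ccnd3 with Bysl, Cdk4 with Tspan31, and Rb1 with Rcbtb2 and Lpar6. Whether counting used strand is not given in the sources used here, so reads in the shared stretches may have come from either gene. The mean counts per library of these neighbours were 401 for LTO1, 3040 for Bysl, 2080 for Tspan31, 1150 for Rcbtb2 and 205 for Lpar6. Ccnd2 and Cdk6 overlap antisense genes with mean counts of at most 3.92.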

How the data were processed

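Poly(A) RNA of 24 MEF libraries was sequenced. Per the labels and the methods of the study, the authors aligned reads to GRCm38 with STAR and quantified Ensembl transcripts with Salmon within nf-core/rnaseq, with options for unique molecular identifiers. The versions of STAR and Salmon and the use of strand in counting are not given in the sources used here. The deposited gene table holds estimated counts, which are not whole numbers and were rounded here. The deposited transcript tables hold estimated counts and TPM, which the authors' quantification scaled by effective length. Gene counts equalled the summed transcript counts.

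Groups came from the labels, with 4 libraries each. Genes were filtered with filterByExpr, leaving 15828 of 55487 genes that held 99.96% of counts, scaled by TMM and fitted with edgeR 4.0.16 (R 4.3.3) as 6 group means over all 24 libraries. The quasi-likelihood test was adjusted over all genes tested, and a call needed an adjusted p below 0.05 and a difference of 1.2-fold or more, the limits the study used. Intervals at 95% were taken from the standard errors. Passage slopes were fitted within each genotype. Cdkn2a transcripts were compared by exact permutation tests on log2(TPM + 0.1) with SciPy 1.17.1. DESeq2 1.42.0 was an alternative. The scripts were tested on simulated data.

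The 10 genes, the lists and the tests were chosen with earlier results of these data known. All 10 are described. Of each list at most 2 called genes in each direction are named, those of the largest change. Calls of list genes in the tests by genotype and by passage are given in part, and 1 called gene that the rule would name is not reported here. For Ccnd1 and Cdkn1b, the 3 genes of highest correlation are named. Sequences are from GENCODE M21 transcripts and RefSeq promoters of GRCm38. Libraries of a group differed by more than sampling noise (chi-square per degree of freedom 3.46 to 25.8), so none was counted as a repeat. Libraries with the same replicate number in the labels did not deviate together, with a correlation over 0.1 in 5 of 60 pairs, while libraries of the same passage did so in 15 of 24.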

Additional observations from a re-analysis of the deposited data

Results flagged for a closer look

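Of 72 sets of 4 libraries examined for a library far from the others, 3 held one, and chance gives about 1 in 20. Ccnd3 stood at 130 CPM in WT MK-8722 replicate 3, above the other libraries of the group at 118 CPM. Cdk6 stood at 94.3 CPM in AMPK KO MK-8722 replicate 2, below 127, 127 and 133 CPM, and this library was of passage 16, the earliest of its genotype. Cdkn2c stood at 54.5 CPM in WT DMSO replicate 4, below 66.6, 67.8 and 68 CPM, and this library was of passage 12, the earliest of WT.

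The response to MK-8722 differed between genotypes, by edgeR's test of the difference itself, for the D-type cyclins. The differences, AMPK KO minus WT on the log2 scale, were 1.103 for Ccnd1, 0.746 for Ccnd2 and 0.276 for Ccnd3. At the same passage, Ccnd1 with MK-8722 stood at 0.611 to 0.666 of its DMSO level in WT and at 1.31 to 1.42 in AMPK KO. For Ccnd2 these ratios were 0.78 to 0.823 and 1.34 to 1.35, and for Ccnd3 0.747 to 0.843 and 0.956 to 1.01.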

How the results depend on the processing

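Of 90 values (10 genes in 9 comparisons) 27 were called, and 17 of the 27 kept their call in every alternative except a 1.5-fold limit. No called value changed sign, and 51 alternative values changed sign where neither fit made a call, from reported values of at most 0.294 in size to values of at most 0.356 on the log2 scale. With the 1.5-fold limit the genes called numbered 1 with MK-8722 in WT, 0 in AMPK KO, 2 between genotypes and 0 for passage in WT. The share of all genes was not counted at that limit, with a library left out or for passage slopes in alternative fits. With an offset for transcript length the genes called numbered 0 with MK-8722 in AMPK KO, against 0.866% of all genes. For the torin1 response by genotype they numbered 1, against 5.01%. DESeq2 called 5 for the MK-8722 response by genotype, against 17.0% of all genes, where the main fit called 12.8%. Passage as a block called 6 for the MK-8722 response by genotype, against 17.6%, and 3 for the torin1 response, against 11.8%. The replicate block left 1 gene called with MK-8722 in AMPK KO, against 1.55%, and 0 for passage in WT. It added Cdkn1b to the MK-8722 response by genotype (-0.27, adjusted p = 0.0315 by edgeR) and changed no other call. Leaving out 1 library in turn gave 1 to 3 genes with MK-8722 in AMPK KO. The 3 came without AMPK KO MK-8722 replicate 2, where Ccnd1 was also called (0.53, adjusted p = 0.036 by edgeR). Leaving out 1 library gave 0 to 1 for passage in WT, and 0 to 1 for the torin1 response by genotype. There Cdkn2b was called (-0.41) without AMPK KO DMSO replicate 3. With transcript counts as CPM, 0 of 10 Cdkn2a transcript tests passed. The values were then 0.27 for p16Ink4a with MK-8722 in WT, 0.30 and 0.35 with torin1 in WT and AMPK KO, 0.40 between genotypes, and -0.25 and -0.64 for p19Arf with torin1 in AMPK KO and between genotypes. Library size alone moved the median of all genes to 0.136 and 0.117 for torin1 in WT and AMPK KO and to 0.155 between genotypes. The cause of these changes was not tested. With 4 against 4 libraries the exact test could not go below 0.0286, and Rb1, at 9.72 to 17.6 CPM in DMSO and AMPK KO MK-8722 libraries, had standard errors of 0.15 to 0.22 in the drug and genotype comparisons.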
